A study of Homo sapiens with 6 samples.

Results

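Transcripts of 6 interferon regulatory factor (IRF) genes, IRF1, IRF2, IRF3, IRF4, IRF5 and IRF8, and of IRF2BP2 were compared between Toledo cells given a CARM1 inhibitor and cells given its solvent. The 7 genes were taken by symbol from the 18278 genes of the table, and all 7 were present and tested. IRF2BP2 encodes a corepressor that binds IRF2 and is not itself an IRF, so it is described beside the 6 IRF genes and not counted among them. Toledo is a human B cell line established from a diffuse large B cell lymphoma. Polyadenylated RNA was sequenced from 3 samples grown for 6 days with 5 uM TP-064, a small molecule inhibitor of the arginine methyltransferase CARM1, and from 3 samples grown for 6 days with DMSO. All 6 samples are of the same line, and the labels name no genetic difference between the groups. Nothing in the labels says whether replicates were separate cultures, so p-values speak only of how these samples vary, and part of that may be technical.

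IRF proteins bind DNA through a conserved tryptophan-rich domain that reads repeats of the letters GAAA in interferon-stimulated response elements. IRF3, IRF5 and IRF7 wait in the cytoplasm until sensors of foreign nucleic acid activate them, IRF1 and IRF2 compete for the same elements as activator and repressor, and IRF9 works with STAT2 to carry the signal of type I interferon. IRF4 and IRF8 belong to the blood lineages, bind composite sites together with PU.1, SPIB or BATF, and direct germinal centre entry, class switching and plasma cell formation in B cells.

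The libraries held 41354131 to 48360867 reads over all listed genes, recovered from the deposited values, and intervals from such reads cover counting error only. All 8 B cell marker genes fixed for the check were tested, and their summed level was 112779 to 120386 normalized read counts with TP-064 and 116681 to 118708 with DMSO. Single B cell markers still differed, with 2 called higher, among them MS4A1 at 0.90 on the log2 scale, and 4 called lower, among them CD22 at -2.54 and CD79A at -0.62. A normalized read count is the gene's reads divided by a size factor of the library. Of 7 T cell markers only CD4 and TRAC had rows, both called higher, with sums of 103 to 113 with TP-064 and 28.0 to 45.7 with DMSO. The myeloid markers with rows were CD14, LYZ and CSF1R, 3 of 7, with sums of 71.2 to 99.5 and 34.6 to 65.6, where CSF1R was called higher, CD14 lower and LYZ neither. Plasma cell markers summed to 59930.5 to 65518 with TP-064 and 46186 to 48129 with DMSO, where 2 of 5 tested were called higher and 1 lower. Most of that sum was JCHAIN, at 52708 to 58116 with TP-064 and 37253.5 to 38991 with DMSO. JCHAIN was called higher at 0.55 and TNFRSF17 at 0.93, XBP1 was called lower at -1.06, and MZB1 and PRDM1 were not called. JCHAIN shares exon bases with a gene on the other strand. The other markers of these lists were not analysed here. The part of T cell, myeloid and plasma cell markers in the results below was not tested.

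Of the 7 genes, IRF5 and IRF2BP2 rose and IRF1, IRF2, IRF4 and IRF8 fell with TP-064, while IRF3 did not pass the test. A gene was called at an adjusted p under 0.05 from limma, fitted across 16048 genes on log2 values after adding 1. The response covered most of the transcriptome, since 65.1% of all tested genes were called, 31.9% as higher and 33.3% as lower, so that 6 of 7 called is a share near the background. Against a null of a 1.2-fold change 3 of the 7 were called, IRF2, IRF5 and IRF2BP2, where 34.8% of all tested genes were. None of the 7 changed by 2-fold or more, where 13.1% of tested genes were called with such a change. The median absolute log2 fold change was 0.42 over the 7 genes and 0.35 over all tested genes. The values of TP-064 and DMSO samples did not overlap for 6 of the 7, against 69.1% of all tested genes. In bulk RNA a smaller share of cells that express a gene and less RNA per cell cannot be told apart.

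**Figure D1:**
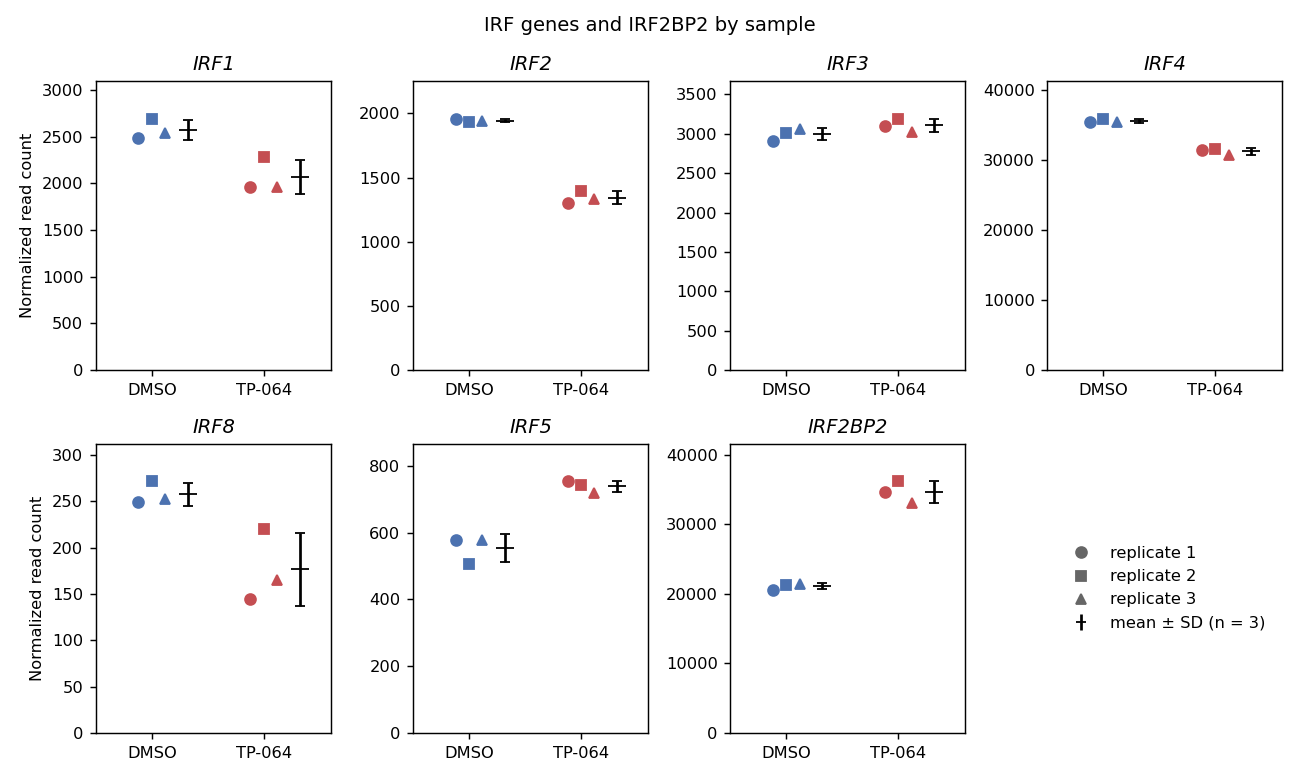
Normalized read counts (vertical axes, linear from 0) of 6 IRF genes and IRF2BP2 in each DMSO and TP-064 sample, with the mean and SD of 3 replicates beside the points. The groups are apart in every panel except that of IRF3, and the largest spread relative to the mean is in the TP-064 samples of IRF8.

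IRF1, the activator induced by interferon gamma, read 1955, 2277 and 1962 normalized read counts in TP-064 replicates 1, 2 and 3 and 2482, 2690.2 and 2533 in DMSO replicates 1, 2 and 3. Each treated sample lay below each control, with TP-064 replicate 2 the closest to them. The means were 2065 ± 184 and 2568 ± 108 (SD, n = 3 each), a difference of -0.32 on the log2 scale (limma, SE 0.06, adjusted p = 0.000148). Under library size scaling the change of IRF1 was -0.19 and it was still called.

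IRF2, which occupies the same elements and mostly represses, fell further. It read 1299.7, 1397 and 1334 normalized read counts with TP-064 and 1958, 1931 and 1943 with DMSO, so the groups were far apart. Means of 1344 ± 49.1 and 1944 ± 13.7 (SD, n = 3 each) gave a difference of -0.53 on the log2 scale (limma, SE 0.04, adjusted p = 3.66e-08). Divided by exon length, the level of IRF1 was 0.601, 0.651 and 0.587 of that of IRF2 in TP-064 replicates 1, 2 and 3 and 0.507, 0.557 and 0.521 in DMSO replicates 1, 2 and 3. This ratio does not depend on the scaling of the libraries. It was higher in all 3 treated samples, by 0.22 on the log2 scale (exact two-sided permutation test, p = 0.1, the smallest that 3 against 3 samples allow).

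IRF2BP2, the corepressor partner of IRF2, had the largest change of the 7 genes. It read 34662, 36182 and 33084 normalized read counts with TP-064 and 20609.8, 21338 and 21405 with DMSO. The lowest treated sample was above the highest control by more than the whole spread of either group. Means of 34642.5 ± 1549 and 21118 ± 441 (SD, n = 3 each) correspond to a ratio of 1.64 and a difference of 0.71 on the log2 scale (limma, SE 0.04, adjusted p = 3.59e-10). AL160408.2, an antisense gene that overlaps 693 exon bases of IRF2BP2 on the other strand, read 549 normalized read counts in TP-064 replicate 3 and between 11.9 and 42.5 in the other 5 libraries. That is 1.66% of the IRF2BP2 value in replicate 3 and 0.0556% to 0.166% elsewhere. Without TP-064 replicate 3 the log2 fold change of IRF2BP2 was 0.75.

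IRF4, a driver of plasma cell formation and a survival factor of many B cell tumours, was the most abundant of the 6 IRF genes. It read 31463, 31579 and 30641 normalized read counts with TP-064 and 35445, 35879.6 and 35445 with DMSO. The treated samples were all lower, but the distance was small. Means of 31228 ± 511 and 35589.8 ± 251 (SD, n = 3 each) gave a difference of -0.19 on the log2 scale (limma, SE 0.03, adjusted p = 0.000134). Under library size scaling the change of IRF4 was -0.066 and the call was lost (limma adjusted p = 0.0563). That scaling shifted the median log2 fold change of all tested genes from 0.01 to 0.13. It moves all genes by nearly the same amount. IRF4 lay below the median of all tested genes, and this could not differ between the scalings, so it is no further observation.

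IRF8, the relative of IRF4 found in germinal centre B cells and in myeloid cells, was the least abundant of the 7. Its values were 144, 221 and 165 normalized read counts with TP-064 and 249, 271 and 252 with DMSO. All treated samples were below all controls, but TP-064 replicate 2 lay nearer to the controls than to replicate 1. Means of 176 ± 39.5 and 258 ± 12.1 (SD, n = 3 each) gave a difference of -0.56 on the log2 scale (limma, SE 0.13, adjusted p = 0.00142). The 95% interval ran from -0.84 to -0.29, the widest of the 7. The SD of the TP-064 samples was 22.4% of their mean, where counting error alone gives 7.46%, while in DMSO samples it was 4.70% where counting gives 6.36%. Leaving out TP-064 replicate 2 gave -0.74 and leaving out TP-064 replicate 1 gave -0.43, and the gene stayed called in both.

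Per kilobase of exon IRF4 exceeded IRF8 by factors of 191, 125 and 163 in TP-064 replicates 1, 2 and 3 and 125, 116 and 123 in DMSO replicates 1, 2 and 3. The ratio of IRF8 to IRF4 was lower in the treated samples by 0.38 on the log2 scale (exact two-sided permutation test, p = 0.1). The groups were barely apart, at 0.00798 in TP-064 replicate 2 and 0.00803 in DMSO replicate 1.

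IRF3, which induces type I interferon below cGAS, RIG-I and TLR3, was the member without a call. It read 3102, 3192 and 3027 normalized read counts with TP-064 and 2913, 3012 and 3066 with DMSO. The groups overlapped, since TP-064 replicate 3 was below DMSO replicate 3. Means of 3107 ± 82.4 and 2997 ± 77.5 (SD, n = 3 each) gave 0.05 on the log2 scale, with a 95% interval from -0.03 to 0.13 (limma, SE 0.04, adjusted p = 0.249). IRF3 was called higher with library size scaling, at 0.17, and by edgeR on recovered reads, at 0.080. BCL2L12, which shares 734 exon bases with IRF3 on the opposite strand, changed by -0.82 on the log2 scale (limma adjusted p = 3.65e-09), and its normalized read count was 24.9% to 27.1% of that of IRF3 with TP-064 and 47.3% to 48.4% with DMSO. The libraries were stranded per the labels' protocols. No source used here gives the strand setting of the counts, so reads of this stretch may belong to either gene.

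IRF5, which acts below TLR7 and TLR9 and is linked to autoimmunity, rose. Its values were 753, 743 and 719 normalized read counts with TP-064 and 577, 506 and 579 with DMSO. No treated sample came near the controls, among which DMSO replicate 2 was the lowest. Means of 738 ± 17.6 and 554 ± 41.5 (SD, n = 3 each) gave a difference of 0.42 on the log2 scale (limma, SE 0.06, adjusted p = 4.16e-05). A processed copy of IRF5 is annotated elsewhere in the genome as IRF5P1 and can share reads, so the level of IRF5 is uncertain to that extent.

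**Figure D2:**
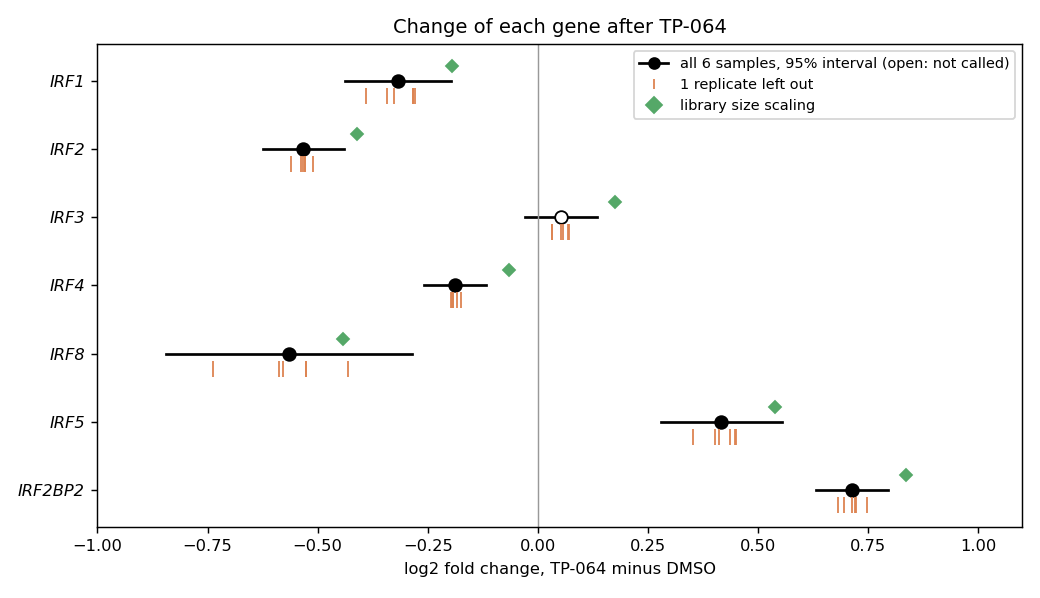
Log2 fold changes (TP-064 minus DMSO) of the 7 genes with 95% intervals from limma, the values with 1 replicate left out, and the values under library size scaling. Each of the 7 keeps its sign under the settings drawn, IRF4 with library size scaling lies at -0.066, and the interval of IRF3 includes 0.

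On GRCh38 with GENCODE release 29, the genes lie on 7 different chromosomes. IRF1 is on chromosome 5 from 132481609 to 132490798 on the minus strand, IRF2 on chromosome 4 from 184387713 to 184474580 on the minus strand, and IRF3 on chromosome 19 from 49659569 to 49665875 on the minus strand. IRF4 is on chromosome 6 from 391739 to 411447, IRF5 on chromosome 7 from 128937612 to 128950035 and IRF8 on chromosome 16 from 85898803 to 85922609, all on the plus strand. IRF2BP2 is on chromosome 1 from 234604269 to 234609525 on the minus strand. All are protein-coding, and counts were summed over all exons of a gene, so isoforms were not separated. IRF2, IRF4, IRF5 and IRF8 share no exon bases with a listed gene on the other strand. IRF1 overlaps C5orf56, which read 92.0 to 131 normalized read counts over the 6 libraries, or 4.04% to 5.64% of the IRF1 value.

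Promoter windows from RefSeq on GRCh38.p14, 250 bases before to 50 after a start site, were found for 5 of the 7 genes in 10 windows. The 250 bases upstream are shown for IRF1 and for an internal start site of IRF5, whose windows held motif matches, and for IRF2BP2, the gene with the largest change. Sequences read 5′ to 3′ on the gene's strand, and capitals mark the motif matches. IRF1 covers chr5:132490774-132491023 (minus strand), IRF5 chr7:128940420-128940669 (plus strand) and IRF2BP2 chr1:234610179-234610428 (minus strand). The IRF2BP2 window shown lies before the RefSeq start site at 234610178, upstream of the GENCODE gene's end at 234609525. The window at 234609525 lies inside the RefSeq gene and is not shown.
IRF1: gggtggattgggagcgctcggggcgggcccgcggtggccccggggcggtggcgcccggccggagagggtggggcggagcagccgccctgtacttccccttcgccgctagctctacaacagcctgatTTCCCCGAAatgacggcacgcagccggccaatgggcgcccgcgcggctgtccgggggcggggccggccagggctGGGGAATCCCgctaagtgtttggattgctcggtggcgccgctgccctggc
IRF5: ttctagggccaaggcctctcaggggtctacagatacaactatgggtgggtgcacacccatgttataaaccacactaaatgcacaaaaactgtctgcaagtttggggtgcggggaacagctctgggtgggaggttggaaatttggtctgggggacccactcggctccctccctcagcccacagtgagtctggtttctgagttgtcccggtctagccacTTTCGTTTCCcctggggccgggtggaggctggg
IRF2BP2: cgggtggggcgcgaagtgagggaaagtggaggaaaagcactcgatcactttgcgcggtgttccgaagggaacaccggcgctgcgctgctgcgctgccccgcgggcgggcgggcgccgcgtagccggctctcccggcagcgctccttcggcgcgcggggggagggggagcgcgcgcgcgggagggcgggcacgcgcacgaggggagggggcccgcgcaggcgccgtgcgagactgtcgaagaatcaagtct

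Both strands of the 10 windows were searched for the interferon-stimulated response element core (GAAA, any 2 bases, GAAA) and the ETS-IRF composite element (GGAA, any 2 bases, GAAA). Also searched were the gamma-activated site TTCNNNGAA, the AP-1 site TGANTCA, the cyclic AMP response element TGACGTCA and the kappa B consensus GGGRNNYYCC. Here N is any base, R is A or G and Y is C or T. The kappa B letters were chosen after the promoters were read, so their match in IRF1 is no independent observation. IRF1 held a gamma-activated site, TTCCCCGAA, starting 124 bases upstream of its start site, and a kappa B match, GGGGAATCCC, starting 50 bases upstream. The internal IRF5 window held a composite element on the opposite strand, TTTCGTTTCC as read on the gene's strand, starting 33 bases upstream. No matches overlapped, apart from the kappa B match of IRF1, which was found on both strands. Of all 35116 windows in the table, 7.66% held the gamma-activated site, 11.3% the kappa B consensus, 2.82% the composite element, 3.57% the response element core, 7.71% the AP-1 site and 1.85% the cyclic AMP response element. The windows of IRF4, IRF8 and IRF2BP2 and the other windows of IRF5 held none of these letters. Both IRF8 windows lie at start sites inside the annotated gene. A match is a string of letters, not a measured site.

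Levels of different genes were compared per kilobase of exon. In DMSO the order was IRF4 at 6034 ± 42.6, IRF2BP2 at 4470.3 ± 93.4, IRF3 at 790.0 ± 20.4, IRF2 at 624 ± 4.39, IRF1 at 329 ± 13.9, IRF5 at 127 ± 9.49 and IRF8 at 49.9 ± 2.35 normalized read counts per kilobase (SD, n = 3 each). After TP-064 IRF2BP2 came first at 7333 ± 328 and IRF4 second at 5295 ± 86.7. The rest kept their order, with IRF3 at 819 ± 21.7, IRF2 at 431 ± 15.8, IRF1 at 265 ± 23.6, IRF5 at 169 ± 4.03 and IRF8 at 34.2 ± 7.66. No neighbours in either order overlapped between samples. Among tested protein-coding genes in DMSO, IRF4 was at percentile 97.8 and IRF2BP2 at 97.0, while IRF8 was at percentile 23.3.

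**Figure D3:**
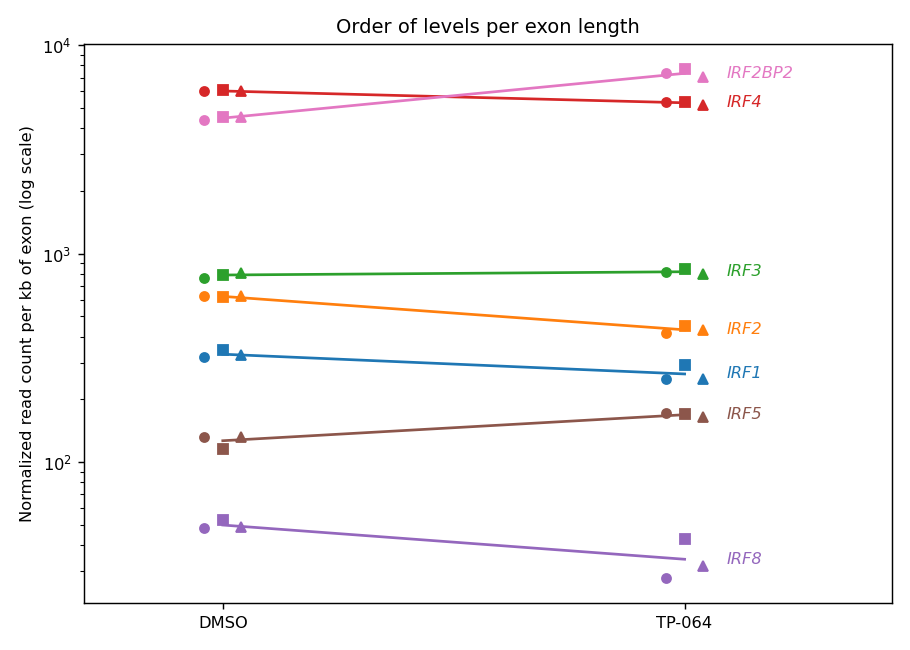
Normalized read counts per kilobase of exon (log scale) of the 7 genes in DMSO and TP-064 samples, with points for the replicates and lines between the group means. The lines of IRF4 and IRF2BP2 cross, at 6034 and 4470.3 in DMSO against 5295 and 7333 with TP-064, and the other genes keep their order.

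The 6 IRF genes together gave 7013 ± 140 normalized read counts per kilobase with TP-064 and 7954 ± 53.2 with DMSO (SD, n = 3 each). IRF4 made up 75.5% of that sum with TP-064 and 75.9% with DMSO, and its share overlapped between the groups. IRF2 made up 6.15% and 7.84%, IRF3 11.7% and 9.93%, IRF5 2.41% and 1.59%, and IRF8 0.487% and 0.627%. IRF1 made up 3.77% with TP-064 and 4.14% with DMSO, and its shares overlapped. The shares of IRF2, IRF3, IRF5 and IRF8 did not overlap between groups. A share also moves when the sum moves, and the sum was lower with TP-064. The level of IRF3 itself overlapped between the groups and was not called. With the longest transcript in place of all exons the share of IRF4 was 71.2% and 71.5%, and the order of the 7 genes was as before.

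The genes whose log2 values lay nearest to those of IRF2BP2 over the 6 samples, each centred on its own mean, were CYBC1, XKR8 and CDK6, with root mean square distances of 0.0148, 0.0199 and 0.0209. CYBC1 is a chaperone of the phagocyte oxidase, XKR8 a scramblase of the plasma membrane and CDK6 a kinase of G1 phase. CYBC1 read 8335, 8668 and 8102 normalized read counts with TP-064 and 5010.2, 5266 and 5175 with DMSO. The search covered 10202 protein-coding genes with a mean of at least 100. Nearest to IRF8 were BIN1, a membrane-bending protein, SGK1, a serine kinase, and BOLA3, a mitochondrial iron-sulfur factor, at 0.0644, 0.0833 and 0.0884. They were chosen for this likeness, so a shared high TP-064 replicate 2 is no further observation. BIN1 read 321, 422 and 334 normalized read counts with TP-064 and 512, 575 and 518 with DMSO.

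Genes around the IRF proteins were taken from 8 lists and described by their counts beside the 65.1% of all tested genes called. Of the 4 other tested genes of both families 2 rose and 1 fell, with a median of 0.30. IRF7, the amplifier of the type I interferon response, rose by 0.61 (SE 0.05, limma adjusted p = 5.72e-08). It read 2450.0, 2515 and 2266 normalized read counts with TP-064 and 1543, 1518 and 1681 with DMSO, with no overlap. IRF2BP1 was called higher at 0.17 and IRF2BPL lower at -0.36, so the 3 IRF2BP paralogs did not share a direction. The call of IRF2BP1 was lost without TP-064 replicate 1 (0.13), TP-064 replicate 2 (0.13), DMSO replicate 1 (0.17) or DMSO replicate 2 (0.15), and without TP-064 replicate 3 it was 0.26. IRF9 did not pass, at 62.1, 73.2 and 70.1 normalized read counts with TP-064 and 38.4, 68.6 and 48.7 with DMSO (log2 fold change 0.43, limma adjusted p = 0.079).

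Of 14 tested partner factors 7 rose and 5 fell, and the median difference was 0.05 on the log2 scale, against 0.01 over all tested genes. STAT2, which binds IRF9 and also stands on the JAK-STAT list below, rose by 1.36 (SE 0.03, limma adjusted p = 6.82e-14), with 16046, 15249.5 and 15673 normalized read counts with TP-064 and 6135, 5976 and 6152 with DMSO. JUNB, a subunit of AP-1, rose by 0.41, and IKZF3, the lymphoid zinc finger factor Aiolos, fell by 0.86. SPI1, which encodes PU.1, did not pass (log2 fold change -0.01, limma adjusted p = 0.875), and SPIB, its relative in B cells, rose by 0.11. SPI1 and SPIB lie outside the naming rule and were chosen after their values were seen.

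Among 25 tested sensors, adaptors and kinases that activate IRF proteins, 14 rose and 6 fell, with a median of 0.23. With library size scaling 16 rose and 4 fell. TLR7, the endosomal receptor for single-stranded RNA, rose by 1.63 (SE 0.04, limma adjusted p = 1.58e-13), with 4550.4, 5049.6 and 4927 normalized read counts with TP-064 and 1580.1, 1516 and 1589 with DMSO. CXorf21, which encodes the IRF5 adaptor TASL, rose by 1.11 (SE 0.05, limma adjusted p = 2.98e-11). TRAF3, an adaptor that restrains noncanonical NF-kB, changed by -0.44. Of 5 NF-kB subunits, which act upstream of IRF1 and IRF4, 3 rose and 1 fell, with a median of 0.16. RELB rose by 0.37 and NFKB2 by 0.18, and NFKB1 changed by -0.35.

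Of 15 tested genes of interferon receptors and JAK-STAT signalling, 5 rose and 5 fell, with a median of 0.01, and with library size scaling 8 rose and 3 fell. SOCS1, an inhibitor of JAK kinases, rose by 0.91 and IFNGR2, a chain of the interferon gamma receptor, changed by -0.50. Of 28 tested interferon-stimulated genes 6 rose and 9 fell, with a median of -0.08, or 0.04 and 9 higher against 8 lower with library size scaling. HERC5, the ligase that attaches ISG15, changed by -1.93 (SE 0.09), from 495 ± 20.2 to 129 ± 11.8 normalized read counts (SD, n = 3 each). SP110, a nuclear body protein, changed by -0.99, and TRIM22, an antiviral ubiquitin ligase, rose by 1.01 (limma adjusted p = 6.87e-11 for HERC5, 8.09e-11 for SP110 and 3.22e-12 for TRIM22).

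Of 11 tested antigen presentation genes linked to IRF1, 1 rose and 6 fell, with a median of -0.15, or -0.03 and 3 higher against 4 lower with library size scaling. PSMB9 and PSMB8, subunits of the immunoproteasome, changed by -0.96 and -0.44, and CIITA, the master activator of MHC class II genes, rose by 0.25. Of 16 tested B cell genes linked to IRF4 or IRF8, 7 rose and 6 fell, with a median of 0.08. BLNK, an adaptor below the B cell receptor, rose by 2.50 and POU2AF1, a coactivator of octamer factors, by 0.48, while XBP1, a plasma cell factor, changed by -1.06. PRDM1, the plasma cell repressor that IRF4 induces, did not pass, at 82.2, 78.1 and 67.0 normalized read counts with TP-064 and 107, 99.4 and 69.2 with DMSO; it was chosen after its values were seen. Of the named genes, IRF2BPL, JUNB, IFNGR2, SP110, PSMB9, PSMB8, CIITA, BLNK and CYBC1 share exon bases with a listed gene on the other strand, so their counts are uncertain to that extent.

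**Figure D4:**
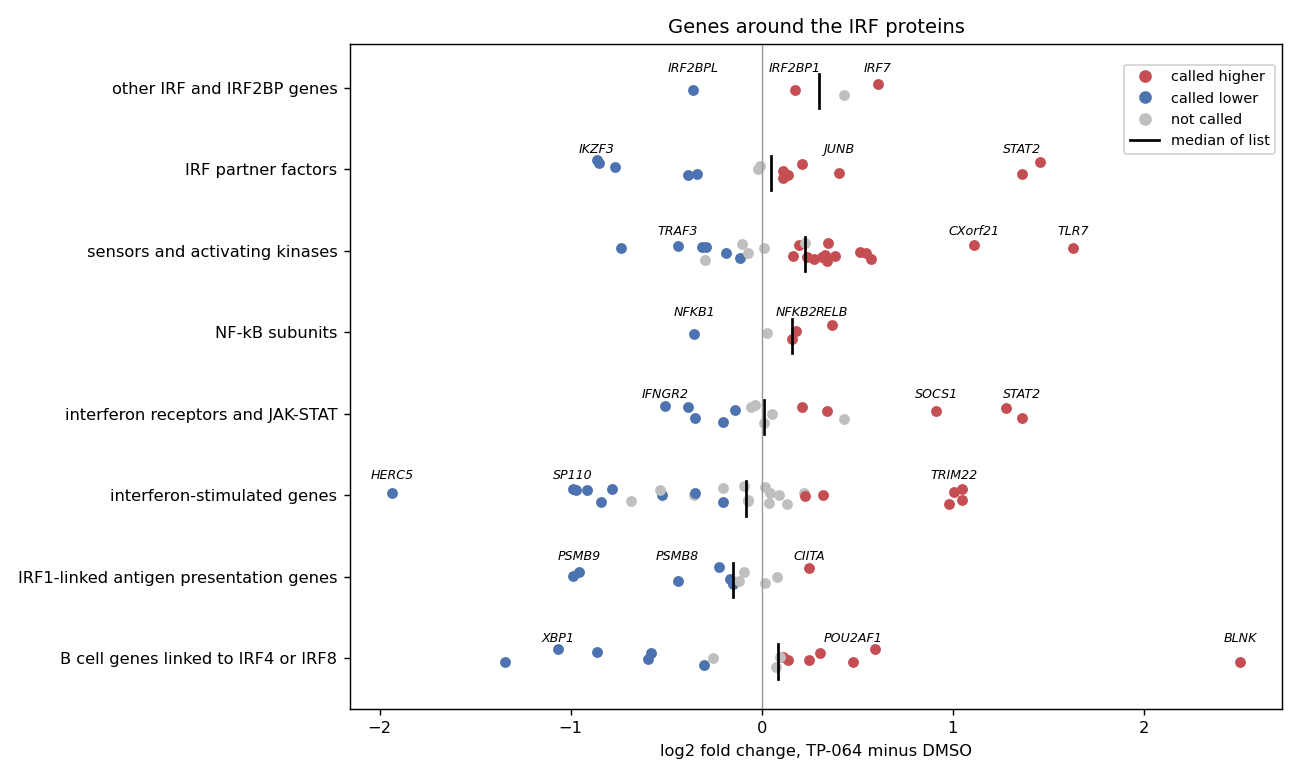
Log2 fold changes (TP-064 minus DMSO) of the tested genes in 8 lists around the IRF proteins, coloured by the limma call, with the median of each list as a bar and the genes named by rule labelled. The lists hold changes in both directions, from -1.93 for HERC5 to 2.50 for BLNK, and their medians lie between -0.15 and 0.30.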

How the data were processed

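RNA was measured in 3 TP-064 and 3 DMSO samples of Toledo cells, from stranded polyadenylated RNA libraries per the labels' protocols. The submitters' processing notes name the hg38 build, DESeq 1.18.0, HTSeq 0.6.0 and TopHat2 2.0.10. The signal values the authors deposited, in 1 table, are reads per gene divided by a size factor of the library. All values were whole multiples of 1 step per column within 0.001, and 1 divided by the step equalled the recomputed size factor of each library. In replicate 2 of each group the step is close to 1. Reads were recovered in every column as the value divided by the step. The recomputed size factors came from those reads, so their match is no independent check of them.

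Symbols and exon lengths came from GENCODE 29, matched for 18214 of 18278 genes. Limma 3.58.1 (R 4.3.3, trend option, no replicate block, 4 residual degrees of freedom) was fitted on log2 of the value plus 1 over genes with a mean of at least 10, which left out 2230, with Benjamini-Hochberg adjustment over all tested genes. The procedure was run on simulated counts with known size factors and with changes planted in few genes, balanced in direction. That run did not test the choice of scaling or a response as broad as the one seen here. Named genes were the 7 members, from each list up to 2 called genes of smallest p in the commoner direction and 1 in the opposite one, and the 3 nearest in pattern to the 2 members that changed most. Members and lists were chosen with earlier results of these data known. The motifs were chosen after the values were seen, and the kappa B letters after the promoters were read. Alternatives were pseudocounts of 0.5 and 5, other filters and scalings, edgeR 4.0.16, DESeq2 1.42.0 and limma-voom on recovered reads, a replicate block, a null of a 1.2-fold change, and each replicate left out.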

Additional observations from a re-analysis of the deposited data

How the results depend on the processing

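Over 17 alternative settings IRF1, IRF2, IRF3, IRF4, IRF5, IRF8 and IRF2BP2 each kept its direction. The other filters, the replicate block and the null of a 1.2-fold change leave the log2 fold change as in the main fit. Direction could not change under those settings, only the call. IRF2, IRF5 and IRF2BP2 were called under all 17, IRF1 and IRF8 under 16, IRF4 under 15 and IRF3 under 2. With library size scaling IRF3 was called at 0.17 and IRF4 was not at -0.066, and edgeR on recovered reads called IRF3 at 0.0802 (adjusted p = 0.0491). Against a null of a 1.2-fold change 5592 genes (34.8%) and 3 of the 7 were called, and IRF1 at -0.32, IRF4 at -0.19 and IRF8 at -0.56 were not (adjusted p of 0.366, 1 and 0.0515). That null asks for a larger change by construction. Library size scaling moved the share of higher calls from 48.9% to 61.5%. The count of called genes was 9586 to 10811 under the other settings. Over all tested genes same-numbered samples did not deviate together, with correlations of -0.0859, 0.0659 and -0.0793 for replicates 1, 2 and 3. These correlations rest on 3 samples per group and cannot show whether same-numbered samples shared a culture or a preparation. A fit with the replicate block called 10491 genes and 6 of the 7 members. Replicate 2 was the highest sample of both groups for IRF1, IRF4 and IRF8, and for none of the other members. With the block the limma adjusted p fell to 9.98e-06 for IRF1, 6.86e-05 for IRF4, 0.000364 for IRF8 and 2.31e-10 for IRF2BP2. For IRF2 it rose to 9.82e-08, for IRF3 to 0.253 and for IRF5 to 5.12e-05. With no filter on low values each member's call was as before. Counting error limits IRF8 most, at 7.46% of the level in TP-064 libraries.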

Other observations

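Of the 25 tested sensors, adaptors and kinases, 14 were called higher and 6 lower, where 31.9% and 33.3% of all tested genes were, and genes of that list outside the naming rule are given here with no test of the list. Besides TLR7 and CXorf21, those called higher were TLR10 at 0.35 on the log2 scale, MYD88 at 0.20, IRAK4 at 0.16, TRAF6 at 0.24, the lysosomal transporter SLC15A4 at 0.28, the kinase IKBKB at 0.33 and TANK at 0.32. The RNA sensors DDX58, IFIH1 and DHX58 were called higher at 0.34, 0.38 and 0.51, as were the adaptors MAVS at 0.55 and TMEM173, which encodes STING, at 0.57. Besides TRAF3, those called lower included the DNA sensor CGAS at -0.73, the kinase CHUK at -0.31, TRIM21 at -0.18 and TBK1, which phosphorylates IRF3, at -0.11. With library size scaling TBK1 was at 0.01 and TRIM21 at -0.06, and neither was called. TLR3 at -0.29, TICAM1 at 0.23, UNC93B1 at -0.10, IKBKE at -0.07 and IRAK1 at 0.01 did not pass. TICAM1 and IRAK1 were called higher with library size scaling, at 0.35 and 0.14. TBK1, CHUK and TANK share exon bases with a gene on the other strand.

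BATF, a partner of IRF4 and IRF8, was called higher at 1.46 from a low level, at 40.2, 86.1 and 54.8 normalized read counts with TP-064 and 20.8, 14.9 and 27.0 with DMSO, and its relative BATF3 was called lower at -0.77. Both were chosen after their values were seen.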
